A study of Mus musculus with 8 samples.

Results

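The genes described here are 10 members of the bone morphogenetic protein (BMP) pathway and its Id targets. They are the ligands Bmp4 and Bmp7, the receptor Bmpr1a, the signal transducers Smad1 and Smad5, the inhibitors Smad6 and Bambi, and the target genes Id1, Id2 and Id3. They were chosen by gene symbol out of 54281 genes in the deposited tables, each symbol had a single row, and all 10 members were among the 17272 genes tested.

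The data are bulk RNA-seq of mouse epiblast-like cells (EpiLCs), an in vitro counterpart of the early post-implantation epiblast, from 4 Tet1 KO and 4 WT lines with 1 library per line. All lines were male embryonic stem cell lines derived from blastocysts of the (B6 × 129S6)F1-Tet1tm1Koh background, so the WT lines share its hybrid strain background without the mutant allele. The paper describes the KO and WT lines as littermate pairs, but no source used here says which KO line belongs with which WT line. Each library comes from a separate line, and the p-values measure the spread between lines. Before conversion both genotypes were kept in 2iL medium, which holds LIF, PD0325901 and CHIR99021. Both were then cultured on fibronectin in N2B27 with 1% KOSR and 12 ng/ml bFGF, without added Activin A, and harvested on day 2. The KO lines were KO1, KO9, KO15 and KO25, and the WT lines were WT7, WT12, WT17 and WT34, and the values of single lines are given in these orders. The libraries titled WT12 and WT17 carry the cell line labels WT9 and WT12, both of them WT, and the titles are used here. The deposited columns end in b2 (KO15, KO25, WT12 and WT34) or b1 (KO1, KO9, WT7 and WT17). No source used here explains this suffix, so b2 and b1 are used only as names of columns.

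BMP ligands bind type I and type II receptor kinases, and the activated type I receptor phosphorylates SMAD1 and SMAD5, which enter the nucleus with SMAD4. The Id genes are classic direct targets, and their products bind E proteins and keep them from DNA. BMP signals with LIF support mouse embryonic stem cell self-renewal, and BMP4 from the extraembryonic ectoderm patterns the epiblast and induces germ cell precursors in the embryo.

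Values of one gene across lines are given as CPM (counts scaled to the TMM-adjusted library size), and levels between genes as TPM, which also scales by transcript length. Library totals ran from 13916576 to 23680839 deposited estimated counts. Tet1, the targeted gene, had 45.3, 38.4, 53.5 and 54.2 CPM in the KO lines, against 816, 559, 775 and 851 CPM in the WT lines. The KO lines were lower in both suffixes (log2 difference -3.97, SE 0.17, edgeR adjusted p = 2.09e-05). In TPM the gap was narrower, at 26.8 ± 5.43 TPM in KO lines and 81.2 ± 14.2 TPM in WT lines (SD, n = 4 each), and limma on TPM did not call Tet1 (log2 difference -1.57 to -1.60, adjusted p = 0.0996 to 0.166). The core pluripotency markers Pou5f1, Sox2, Nanog and Sall4 summed to between 547 and 612 TPM in KO lines and between 506 and 654 TPM in WT lines. The 14 formative and primed markers summed to between 919 and 1157 TPM in KO lines and between 879 and 1132 TPM in WT lines. The 8 primitive streak markers, each averaging under 1 TPM, summed to between 0.895 and 1.76 TPM in KO lines. In WT lines they summed to between 0.239 and 0.889 TPM, so the lowest KO sum was only just above the highest WT sum. Of all genes tested, 4.19% did not overlap between genotypes in CPM. T and Eomes, the 2 tested, were not called (log2 difference 1.39 and 1.12, edgeR adjusted p = 0.777 and 0.907). The naive, extraembryonic endoderm, trophoblast and neural ectoderm sums overlapped between genotypes. Feeder fibroblast markers summed to between 11.2 and 30.1 TPM in KO lines and between 5.65 and 20.5 TPM in WT lines, with Postn at 0 throughout. In bulk libraries, fewer cells of a type and less RNA per cell cannot be told apart.

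Sequence before the RefSeq starts of Id2 and Smad6 is shown because both are SMAD-responsive genes and Id2 is the member that passed a test below. The Id2 stretch is chr12:25096254-25096342 (minus strand, GRCm38.p6). It is the 89-base part of the 250 bases before the RefSeq start that lies outside annotated exons. It is still inside the annotated Id2 gene, because a longer transcript of 1969 nt starts upstream at 25097140. For that transcript the stretch is intronic. The Smad6 stretch is chr9:64022060-64022309 (minus strand, GRCm38.p6), the 250 bases before the RefSeq start. Capitals mark GGCGCC, a GC-rich element bound by SMAD1 and SMAD5, which reads the same on both strands.
Id2: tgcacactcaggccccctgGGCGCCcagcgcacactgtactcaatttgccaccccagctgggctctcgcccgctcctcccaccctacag
Smad6: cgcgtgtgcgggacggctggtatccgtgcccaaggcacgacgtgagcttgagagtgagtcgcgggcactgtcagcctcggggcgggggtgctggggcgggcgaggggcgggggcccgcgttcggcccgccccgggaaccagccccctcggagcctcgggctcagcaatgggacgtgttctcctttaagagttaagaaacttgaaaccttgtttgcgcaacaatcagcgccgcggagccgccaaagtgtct
Of 32851 RefSeq promoter windows of 250 bases, 9.59% held GGCGCC. The Id2 window held 1 and the Smad6 window held 0. The SMAD box CAGAC, searched on both strands, was in 42.2% of windows, and the Id2 and Smad6 windows held 0. Members not called in the main tests held matches too. The Bmpr1a window and a Smad5 window each held 1 GGCGCC. The Id3 window held 2 CAGAC and another Smad5 window held 1, while the Smad1 and Bmp4 windows held 0 of either. No window was available for Id1, Bmp7 or Bambi. These matches describe letters in a window and are not evidence of binding.

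The members spanned a wide range of levels in EpiLCs, with Id3 and Bmpr1a at the top and Id1 at the bottom. By length-normalised level over the 8 lines, Id3 averaged 22.3 ± 11.05 TPM and Bmpr1a averaged 12.0 ± 0.93 TPM (SD, n = 8), with overlapping ranges. Smad5 followed at 5.00 ± 0.74 TPM, and its highest line (5.87 TPM) was below the lowest line of Bmpr1a (10.9 TPM). Bmp4 (2.65 ± 2.21 TPM), Smad1 (2.29 ± 0.31 TPM), Id2 (2.22 ± 1.599 TPM) and Smad6 (1.56 ± 1.27 TPM) followed with ranges that overlapped between neighbours, and Smad5 and Bmp4 overlapped as well. Bmp7 averaged 1.08 ± 0.30 TPM, Bambi 0.60 ± 0.07 TPM and Id1 0.25 ± 0.11 TPM, and the ranges of these 3 genes did not overlap. Leaving out single lines exchanged ranks among Bmp4, Smad1 and Id2 only. The places of Bmp4 and Smad6 in this order rest on assigned transcript lengths that varied 6.09-fold and 7.49-fold between lines, as described further on.

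**Figure D1:**
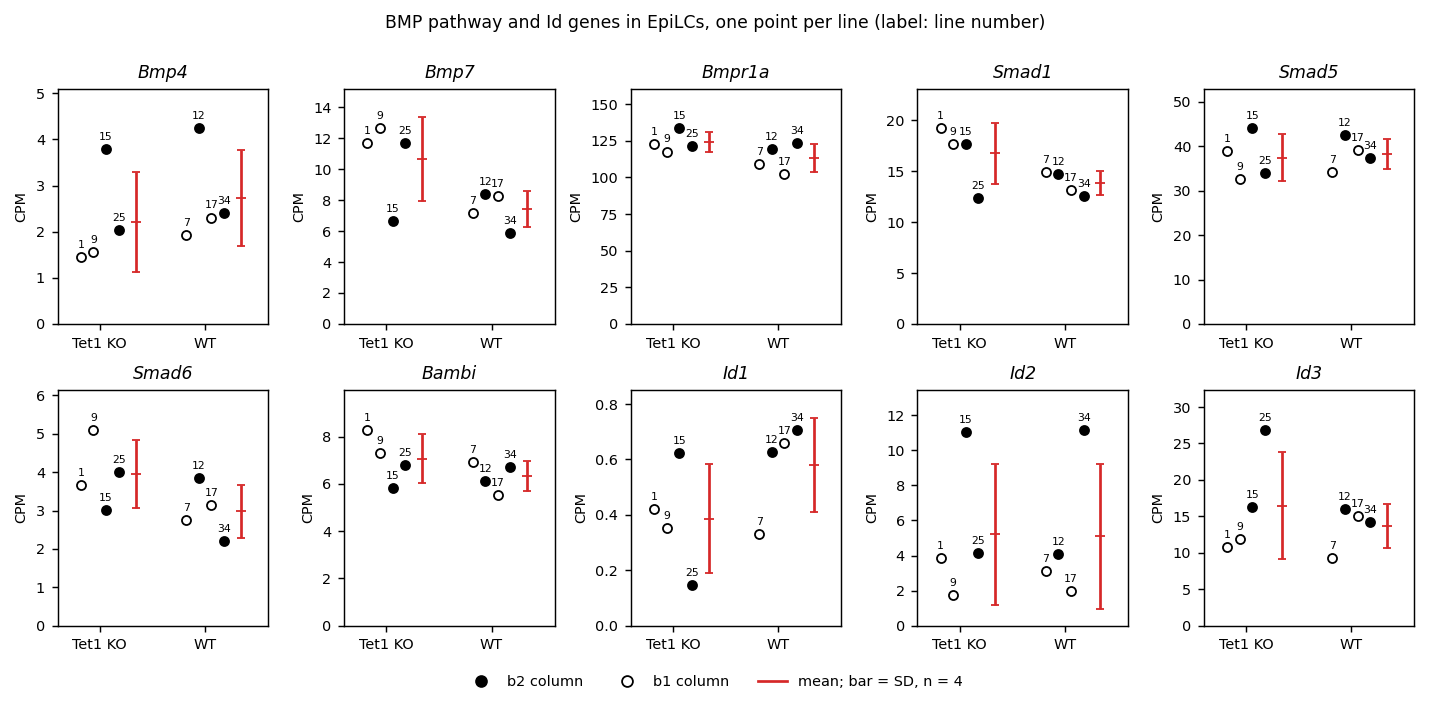
CPM of the 10 genes in each line (y axis, CPM from 0; x axis, Tet1 KO and WT; numbers are line numbers; filled points are b2 columns and open points b1 columns; red bars are the mean and SD of 4 lines). KO and WT lines overlap for every gene, and KO15 and WT34 stand above the other lines for Id2 at 11.1 and 11.2 CPM.

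Between genotypes, the KO lines overlapped the WT lines in all 10 members, and none of the 10 passed an adjusted p of 0.05. Over all genes, edgeR called 7 of 17272 (0.0405%), so the count of 0 members does not stand apart from the background. At an unadjusted p under 0.05 there was 1 member, Bmp7, against 5.62% of all genes. DESeq2 called none of the members, though it gave Id1 no adjusted p, and limma on TPM called none of those it tested. The median log2 difference of the members was 0.14, beside -0.004 for all genes tested, with 7 members above 0 and 3 below.

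Of the 2 ligands among the members, Bmp7 had the smaller p. It encodes a ligand that can form heterodimers with BMP4 (ENSMUSG00000008999.7, chr2:172868012-172940321, GRCm38). Bmp7 had 11.7, 12.7, 6.64 and 11.7 CPM in the KO lines, against 7.20, 8.42, 8.24 and 5.88 CPM in the WT lines. KO15 lay inside the WT range, and the other KO lines lay above it. The log2 difference was 0.52 (SE 0.22, edgeR adjusted p = 0.856). It was 0.66 within b1 and 0.35 within b2. Bmp4 encodes the ligand best known from epiblast patterning (ENSMUSG00000021835.15, chr14:46383520-46390669). It had 1.45, 1.55, 3.79 and 2.04 CPM in the KO lines, against 1.92, 4.25, 2.31 and 2.41 CPM in the WT lines. The log2 difference was -0.31 (SE 0.38, edgeR adjusted p = 0.998), smaller than its error. It was -0.71 without KO15 and -0.008 without WT12, and between -0.65 and -0.97 in limma on TPM, and no setting called it.

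The type I receptor gene Bmpr1a (ENSMUSG00000021796.15, chr14:34410734-34503341) was the most even member. It averaged 124 ± 6.95 CPM in KO lines and 114 ± 9.59 CPM in WT lines (SD, n = 4 each), a log2 difference of 0.13 (SE 0.08, edgeR adjusted p = 0.998). The transducer Smad5 (ENSMUSG00000021540.16, chr13:56703010-56742377) averaged 37.4 ± 5.23 CPM in KO lines and 38.3 ± 3.42 CPM in WT lines, a log2 difference of -0.03 (SE 0.12). Smad1, the other transducer among the members (ENSMUSG00000031681.16, chr8:79338395-79399518), averaged 16.8 ± 3.00 CPM in KO lines and 13.8 ± 1.175 CPM in WT lines, a log2 difference of 0.28 (SE 0.16, edgeR adjusted p = 0.967). KO25, at 12.4 CPM, was below every WT line for Smad1, while the other KO lines, at 17.7 to 19.3 CPM, were above all of them.

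The inhibitors were also within the spread of the lines. Smad6 encodes an inhibitory SMAD that BMP signals induce (ENSMUSG00000036867.7, chr9:63953076-64022059), and it had 3.66, 5.11, 3.01 and 4.01 CPM in the KO lines, against 2.75, 3.84, 3.16 and 2.19 CPM in the WT lines. The log2 difference was 0.40 (SE 0.25, edgeR adjusted p = 0.989), and it turned to -0.76 on log2(TPM + 0.1) in limma. Bambi encodes a pseudoreceptor that lacks a kinase domain (ENSMUSG00000024232.2, chr18:3507923-3516404). It averaged 7.05 ± 1.04 CPM in KO lines and 6.32 ± 0.64 CPM in WT lines, a log2 difference of 0.16 (SE 0.17, edgeR adjusted p = 0.998).

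The Id genes showed no shared direction between genotypes. Id3 (ENSMUSG00000007872.3, chr4:136143497-136145755) had 10.8, 11.9, 16.3 and 26.9 CPM in the KO lines, against 9.24, 16.1, 15.1 and 14.2 CPM in the WT lines. KO25 was the highest line, and without it the log2 difference of 0.27 (SE 0.30, edgeR adjusted p = 0.998) became -0.07. Id2 (ENSMUSG00000020644.9, chr12:25093799-25097140) averaged 5.20 ± 4.05 CPM in KO lines and 5.10 ± 4.15 CPM in WT lines, a log2 difference of 0.05 (SE 0.63). Id1 (ENSMUSG00000042745.9, chr2:152736251-152737410) rested on 9, 7, 12 and 2 counts in the KO lines, against 6, 15, 14 and 10 counts in the WT lines. Its log2 difference was -0.55 (SE 0.45, edgeR adjusted p = 0.998), and KO25, at 2 counts, was below a floor of 3 counts.

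Within the b1 columns, both KO lines were above both WT lines in 5 members (Bmp7, Bmpr1a, Smad1, Smad6 and Bambi), and below them in Bmp4. Over all genes tested, 21.5% were above and 21.6% below in the same columns. Within the b2 columns, Id3 was above and Id1 below, beside 14.1% and 15.3% of all genes. The test of the KO effect in b2 minus that in b1 called 0 members and 0 of 17272 genes in edgeR (0%), with 0 members and 227 genes at an unadjusted p under 0.05. DESeq2 called 2 genes (0.0116%) and no member.

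**Figure D2:**
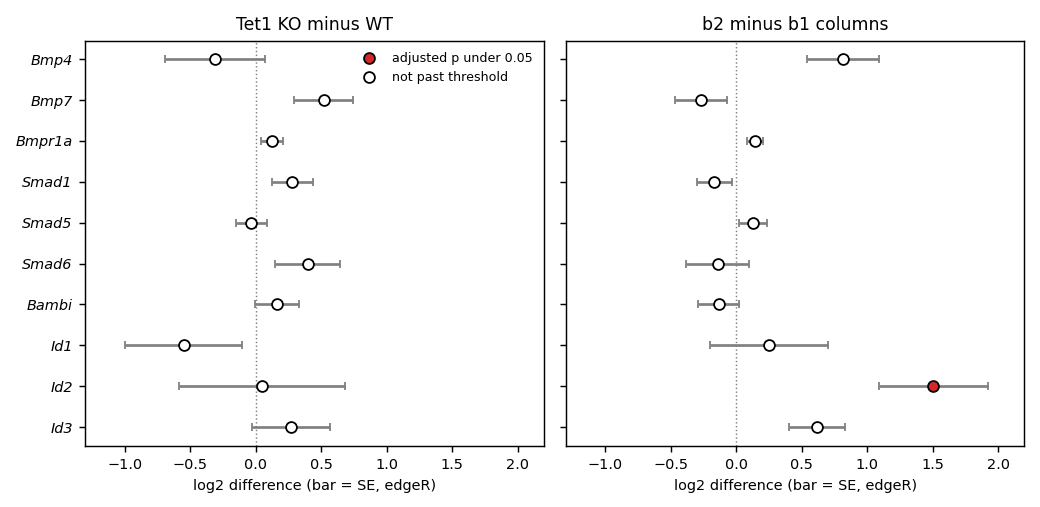
Log2 difference of each gene for Tet1 KO minus WT (left) and b2 minus b1 columns (right); points are edgeR estimates, bars the SE, and filled red points passed an adjusted p of 0.05. Id2, at 1.51 for b2 minus b1, is the point that passed.

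Between the column suffixes, with genotype in the model, Id2 was higher in b2 and no other member passed. edgeR called 4253 of 17272 genes (24.6%), so 1 of 10 members is a smaller share than over all genes. At an unadjusted p under 0.05 there were 4 members, Id2, Bmp4, Id3 and Bmpr1a, against 37.8% of all genes. Id2 had 11.1, 4.16, 4.09 and 11.2 CPM in the b2 lines KO15, KO25, WT12 and WT34, against 3.84, 1.75, 3.13 and 1.98 CPM in the b1 lines KO1, KO9, WT7 and WT17. The suffixes did not overlap, as for 26.3% of all genes, but KO25 and WT12 were close to KO1, and KO15 and WT34 carried most of the difference. The log2 difference was 1.51 (SE 0.42, edgeR adjusted p = 0.0274). It was 1.45 within KO lines and 1.56 within WT lines, and neither was called (edgeR adjusted p = 0.153 and 0.183). The call was lost in limma on TPM (adjusted p = 0.114 to 0.219) and, in edgeR, when any of KO9, KO15, WT7, WT17 or WT34 was left out (adjusted p = 0.0581 to 0.104), with log2 differences of 1.15 to 1.63. It was also lost with the length offset described further on, at a log2 difference of 1.49 (edgeR adjusted p = 0.0553). Without both KO15 and WT34, the b2 lines highest in Id2, the log2 difference was 0.63 (edgeR adjusted p = 0.262).

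Bmp4 and Id3 were close to the threshold on the same side. Bmp4 averaged 3.12 ± 1.06 CPM in b2 lines and 1.81 ± 0.39 CPM in b1 lines (SD, n = 4 each), a log2 difference of 0.81 (SE 0.28, edgeR adjusted p = 0.0585). Bmp4 passed when KO25 (edgeR adjusted p = 0.043) or WT34 (edgeR adjusted p = 0.036) was left out, with no filter (edgeR adjusted p = 0.0417) and with at least 10 counts in every library (edgeR adjusted p = 0.0454). Id3 averaged 18.4 ± 5.78 CPM in b2 lines and 11.8 ± 2.47 CPM in b1 lines, a log2 difference of 0.62 (SE 0.21, edgeR adjusted p = 0.0622), and it passed in DESeq2 (adjusted p = 0.0213). In edgeR it passed without WT17 (adjusted p = 0.0201) and with no filter (adjusted p = 0.00082). In limma on genes with a mean of at least 1 TPM it was the one member called (adjusted p = 0.0402 and 0.0451 for pseudocounts of 1 and 0.1). Bmpr1a had a small difference of 0.14 (SE 0.06, edgeR adjusted p = 0.124). The other 6 members had log2 differences between -0.26 and 0.25 and edgeR adjusted p from 0.363 to 0.726. The median of the members was 0.13, beside 0.01 for all genes tested.

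Some marker genes also differed between the suffixes, beside 13.7% of all genes called higher and 11% called lower in b2. Of the 4 core markers only Sall4 was called (log2 difference 0.86, edgeR adjusted p = 3.5e-05). Pou5f1, Sox2 and Nanog were not called (edgeR adjusted p = 0.246 to 0.645). Of the 14 formative and primed markers, 8 were called higher and 1, Sox4, lower. Of 4 tested neural ectoderm markers, Sox1 and Nes were called higher, and the list summed to between 5.65 and 12.1 TPM in b2 lines and between 3.04 and 4.90 TPM in b1 lines. Of 5 tested feeder fibroblast markers only Thy1 was called, and it was lower (log2 difference -0.95, edgeR adjusted p = 0.0474). Thy1 averaged 15.6 TPM and made up most of that list's sum of 5.65 to 17.5 TPM in b2 lines and 20.1 to 30.1 TPM in b1 lines. Col1a1, Col1a2, Dcn and Pdgfrb, at log2 differences of -0.04, 1.17, 0.48 and -0.37, were not called. The sums of the naive, primitive streak, extraembryonic endoderm and trophoblast lists overlapped between the suffixes, with 2 of 11, 1 of 2, 1 of 8 and 2 of 8 tested markers called, all higher in b2. Their part in the Id2 difference was not tested.

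Smad6 and Bmp4 gave different pictures in counts and in TPM. The deposited count divided by the deposited TPM is proportional to the transcript length that Salmon assigned in each library. For Smad6 this relative length was 1.66, 1.76, 0.263 and 1.53 in the KO lines, and 1.58, 0.235, 0.465 and 0.245 in the WT lines. The lines KO15, WT12, WT34 and WT17 were thus short and the other lines long, a 7.49-fold range. For Bmp4 it was 4.41, 1.06, 0.943 and 3.62 in the KO lines, and 4.41, 0.822, 0.926 and 0.725 in the WT lines, a 6.09-fold range. KO1, KO25 and WT7 were the long lines for Bmp4. The median range over 11231 genes was 1.22-fold, and 99.6% and 99.5% of them had a smaller range than Smad6 and Bmp4.

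In GENCODE M21, Smad6 has transcripts from 273 to 2971 nt and Bmp4 from 258 to 2064 nt. The paper's methods name another GENCODE mouse release for quantification, so these need not be the transcripts that Salmon used. Id3 has a shortest transcript of 277 nt and varied 1.57-fold, while Bambi, with 1 annotated transcript, varied 1.01-fold. In TPM, Smad6 had 0.514, 0.669, 2.64 and 0.607 in the KO lines, against 0.391, 3.97, 1.67 and 2.02 in the WT lines. The b2 minus b1 difference of Smad6 was -0.14 in counts (SE 0.24) and 1.497 with the relative length as an offset (edgeR adjusted p = 0.0999). For Bmp4 the same pair of values was 0.81 and 1.51 (edgeR adjusted p = 0.216 with the offset), and for Id3 it was 0.62 and 1.09 (edgeR adjusted p = 0.0155 with the offset). The level of Smad6 and Bmp4 in one line relative to another therefore depends on which quantity is read. Antisense genes annotated over Bmp4 (Gm15217 and Gm15222) and Bmpr1a (Gm17110) had at most 8 counts in any line. The library kit was stranded, and Salmon was run with default parameters by the paper's methods.

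**Figure D3:**
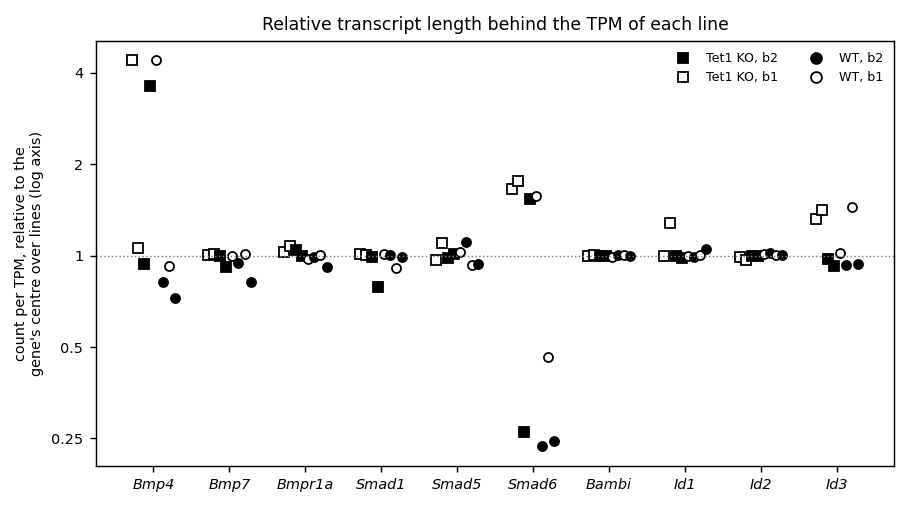
Deposited count per TPM in each line, relative to the centre of the gene over the lines (log y axis), for the 10 genes; squares are Tet1 KO and circles WT lines, filled for b2 and open for b1 columns. Smad6 spreads from 0.235 to 1.76 and Bmp4 from 0.725 to 4.41, while Bambi stays near 1.

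Id1 was too low for its pattern over the lines to be set against other genes with any precision. By the root mean square difference of centred log2 CPM over the 8 lines, the nearest of 15183 genes were Gm14127, Tpgs1, Tmem88b, Gdf1 and Gm3636, at 0.29 to 0.33. Among the members Smad5 was nearest at rank 865, and Id3 and Id2 were at ranks 13091 and 13671. On log2(TPM + 1) the nearest 5 were different genes, Vrk1, Nup133, Magi3, Cpsf7 and Plxnb1, and Bmp4 moved from rank 1807 to rank 14906.

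Among 74 other BMP pathway genes, 51 were tested. None was called between genotypes by edgeR or limma, and 4 had an unadjusted p under 0.05, against 5.62% of all genes. DESeq2 called 1 of the 51, Tgfbr3, against 0.608% of all genes. Tgfbr3, which encodes the co-receptor betaglycan, had 10.1, 9.37, 7.32 and 10.3 CPM in the KO lines, against 4.95, 5.50, 5.56 and 4.18 CPM in the WT lines. The KO and WT lines did not overlap, as for 4.19% of all genes, and the log2 difference was 0.87 (SE 0.17, edgeR adjusted p = 0.275). The ligand gene Bmp6 (0.88, SE 0.38), the procollagen proteinase gene Bmp1, whose product cleaves the antagonist chordin (0.74, SE 0.20), and the antagonist gene Nbl1 (1.31, SE 0.47) were the other genes under that unadjusted p, with edgeR adjusted p from 0.546 to 0.856. Nbl1 was low in every line, from 0.165 CPM in WT7 to 1.53 CPM in KO25.

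Between the suffixes, edgeR called 11 of these 51 genes higher in b2 and 0 lower. Over all genes 13.7% were called higher, 11% lower and 24.6% in all, so the share called in all was not above the background. By direction, the share called higher was above that over all genes, and the share called lower was below it. This difference in direction was not tested. The largest difference was in Smad7, an inhibitory SMAD gene induced by TGF-beta family signals. Smad7 had 7.99, 8.53, 17.1 and 10.4 CPM in the b2 lines KO15, KO25, WT12 and WT34, against 2.16, 1.55, 1.98 and 2.12 CPM in the b1 lines KO1, KO9, WT7 and WT17 (log2 difference 2.46, SE 0.22, edgeR adjusted p = 0.00019). Skil, which encodes the SMAD co-repressor SnoN, had 326, 394, 469 and 441 CPM in the same b2 lines, against 143, 120, 166 and 188 CPM in the same b1 lines (log2 difference 1.41, SE 0.09, edgeR adjusted p = 2.96e-05). Neither gene overlapped between suffixes, and both were called in each of the 21 alternatives.

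By role, 2 of 6 tested ligand genes were higher in b2, Gdf3 (0.68, SE 0.09), a Nodal-related ligand of pluripotent cells, and Amh (1.78, SE 0.37), which was under 1.1 CPM in each line. Of 11 receptor and co-receptor genes, the type II receptor gene Bmpr2 (0.41, SE 0.12) and the co-receptor gene Rgma (0.92, SE 0.17) were higher. Of 9 SMAD and regulator genes, Zfp423 (0.80, SE 0.24), a SMAD cofactor gene, was higher beside Smad7 and Skil. Of 10 antagonist and modulator genes, only Fst (1.43, SE 0.24), encoding the activin and BMP antagonist follistatin, was called. Of 11 other responsive transcription factor genes, Gata3 (1.57, SE 0.27), Tfap2c (0.69, SE 0.13) and Prdm1 (1.23, SE 0.32) were higher. None of the 4 ID partner genes Tcf3, Tcf4, Tcf12 and Tcf15 was called. The 11 calls had edgeR adjusted p from 2.96e-05 to 0.0367. With the relative length as an offset, 6 of the 11 were called (Amh, Fst, Gdf3, Skil, Smad7 and Tfap2c), and without KO15 and WT34, 7 were called. limma on TPM called 4 or 5 of them, but its settings with a mean of at least 1 TPM did not test Amh and Prdm1.

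**Figure D4:**
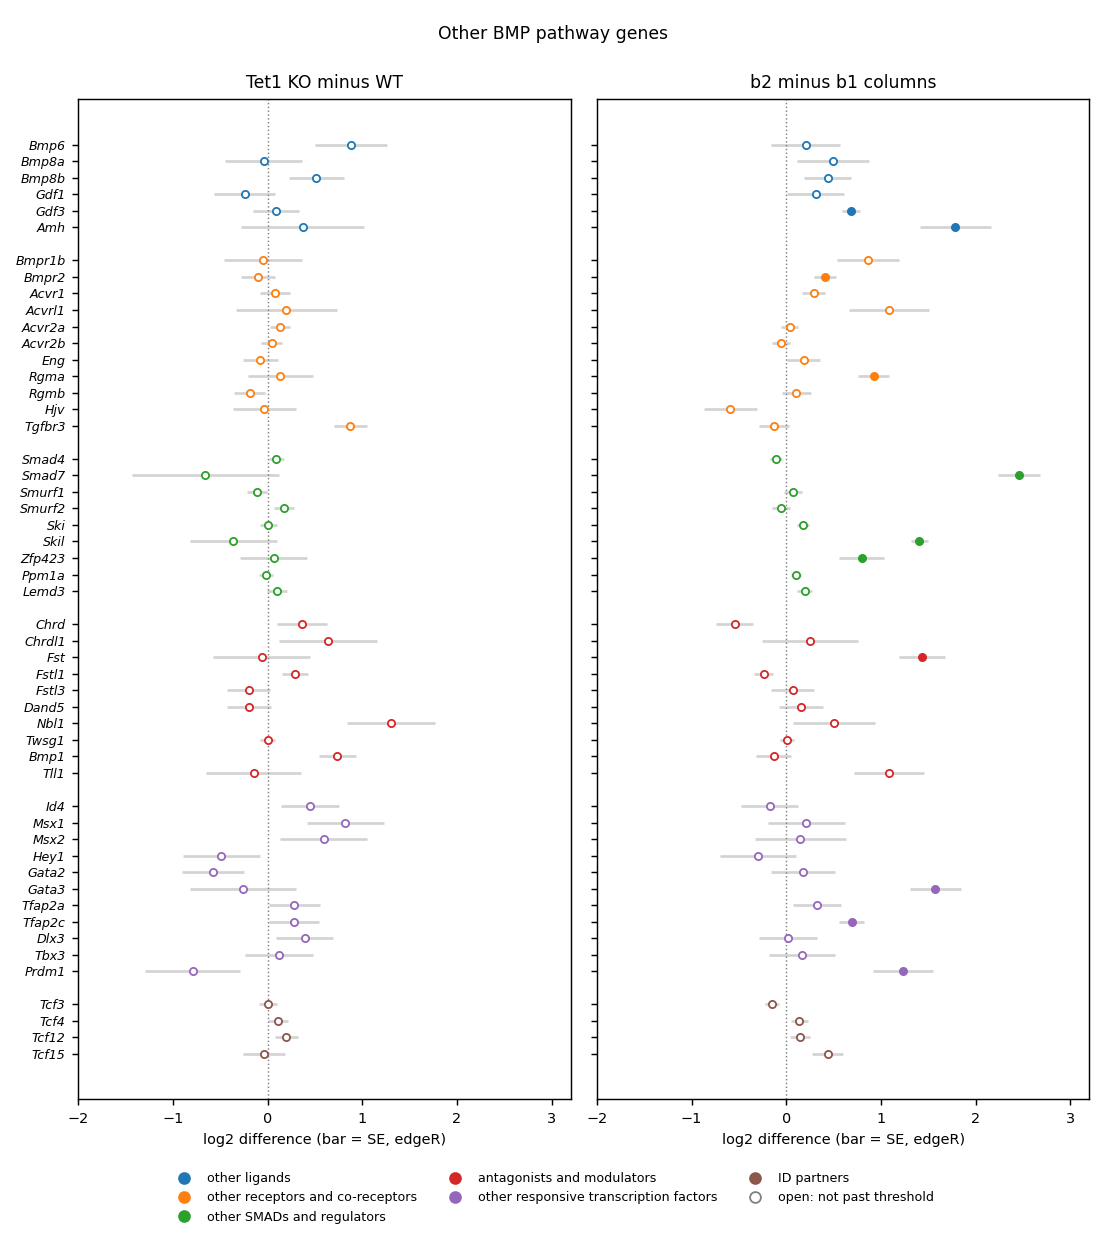
Log2 difference of the 51 other BMP pathway genes tested, grouped by role, for Tet1 KO minus WT (left) and b2 minus b1 columns (right); bars are the SE of edgeR and filled points passed an adjusted p of 0.05. No point is filled on the left and 11 are filled on the right, all above 0, with Smad7 farthest at 2.46.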

How the data were processed

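RNA-seq libraries of 4 Tet1 KO and 4 WT EpiLC lines were analysed. Per the labels and the methods, the authors used Trim Galore 0.6.4 for trimming and Salmon 0.14.1 for quantification on a GENCODE mouse transcriptome. They imported the values with tximport (R 4.0.2) and ran DESeq2 1.30.0. The submitters' processing notes name mm10. The authors deposited estimated counts per gene and, separately, TPM, which are normalised for transcript length and library size.

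The estimated counts were first rounded, so 27.8% of values changed. Genes were filtered with filterByExpr, normalised by TMM and tested with the edgeR 4.0.16 quasi-likelihood test in R 4.3.3, with Benjamini-Hochberg adjustment over 17272 genes and a threshold of 0.05. KO against WT was fitted on genotype alone, so its SE and p-values also hold the spread between suffixes. b2 against b1 was fitted with genotype in the model, and the interaction was fitted separately. CPM use the TMM-scaled library size. SE are those implied by the quasi-likelihood F statistic. Annotation was GENCODE M21, which held 53544 of 54281 gene IDs with their version, and promoter sequence came from RefSeq (GRCm38.p6). The count test was tested on simulated data.

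All 10 members are named, Tet1 as the check, up to 4 genes of each other pathway list with the smallest p in either contrast, and the 5 genes nearest to Id1. The members and lists were chosen with earlier results of these data known. Alternatives were DESeq2 1.42.0 size factors and test, library size alone, other filters, limma 3.58.1 on log2(TPM + 1) or log2(TPM + 0.1), a fold threshold, the suffix as a block or each suffix or genotype alone, and each line left out. A length offset, the removal of KO15 and WT34, and a DESeq2 interaction test were chosen after seeing the data.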

Additional observations from a re-analysis of the deposited data

Results flagged for a closer look

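Bmp7 in KO15 stood apart from the other KO lines, at 6.64 CPM against 11.7 to 12.7 CPM in KO1, KO9 and KO25. Its gap to the nearest line was 0.833 of the range of the KO lines, just above the critical value of Dixon's test for 4 samples. This was 1 of 20 groups examined, and chance flags about 1 in 20 groups.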

How the results depend on the processing

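No member was called between genotypes under any of the 21 alternatives, of which 16 fitted Id1 and 19 fitted Bambi. Among those 16, the DESeq2 test gave Id1 no adjusted p. All-gene counts for KO against WT moved from 7 to 105 with DESeq2, 28 with the suffix as a block, 19 within b1, 3 with the length offset, and 2, 4 and 4 with limma, and ran from 6 to 10 with single lines left out. For b2 against b1 the members called ran from 0 to 2 with single lines left out. They were 3 with no filter, 2 with at least 10 counts and 2 with DESeq2. They were 0 within KO lines, within WT lines, without KO15 and WT34, and in limma on log2(TPM + 1) with any TPM above 0. The 4253 genes called became 1395, 1321 and 1564 in limma, 1014 within KO lines, 271 within WT lines, 2775 without KO15 and WT34, 2456 with the length offset and 928 with the fold threshold, and 2655 to 4807 with single lines left out. DESeq2 called 2 genes for the interaction, against 0 in edgeR.

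Reversed signs, none of them past the threshold, were as follows. For KO minus WT, Smad6 was -0.48 in limma on log2(TPM + 1) with either filter, -0.76 on log2(TPM + 0.1) and -0.87 with the length offset. With single lines left out, Smad5 ran from -0.12 to 0.026, Id2 from -0.64 to 0.76 and Id3 from -0.068 to 0.43. Id3 was -0.10 within b1, and Bambi was -0.023 within b2. For b2 minus b1, Smad6 was 0.81 and 1.34 in limma, 1.497 with the length offset, 0.040 within WT lines and 0.14 without KO15 and WT34. Bambi was 0.040 within WT lines, Bmp7 was 0.034 without KO15 and WT34, and Id1 ran from -0.063 to 0.51 with single lines left out. The cause was not tested. No paired analysis was possible because the labels give the KO and WT lines no shared replicate number and do not say which lines are littermates.

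The 4 lines of each genotype and low counts limit these values: Id1 had 2 to 15 counts a library, and Bmp4 had 28 to 102.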
